A study of Mus musculus with 8 samples.

Results

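Genes of the cell cycle and of DNA replication were followed in mouse colonic mucosa, in a series that compared mice with and without inhibition of Dnmt1. Dnmt1 is the enzyme that restores DNA methylation on daughter strands behind the replication fork. The members were a fixed set of 44 gene symbols, and 37 of them had a row of their own in the table of 18097 rows once rows were named through the platform annotation. The set holds 18 genes of S phase and replication, of which 16 had a row, 25 genes of G2 and mitosis, of which 20 had a row, and the G1 cyclin Ccnd1. The levels of Gins1, Gins2, Aurkb, Ccnb1, Cenpf, Kif20a and Mki67 were not analysed here, but the promoters of Ccnb1, Cenpf and Mki67 are counted below.

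RNA came from 4 male mice, each 157 days old and of mixed 129Sv/B6/D2 background, and hybridised to 8 arrays, 2 for each mouse, of the Illumina MouseRef-8 v2.0 BeadChip. All 4 mice were Dnmt1LO/LO. Both control mice carried that genotype alone, and both transgenic mice carried TgVillacIGY in addition. The labels spell out neither name, so neither the promoter nor the cells in which the transgene acts are stated here, and no mouse without the Dnmt1LO alleles was measured. The 2 arrays of a mouse are technical repeats and count as 1 replicate, so n = 2 mice per genotype. With 2 mice against 2 an exact permutation test cannot go below p = 0.333, and differences were therefore tested with limma over all rows.

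Cells pass from G1 into S phase when cyclin D and cyclin E kinases release E2F transcription factors, which switch on the genes of origin licensing, of the MCM helicase and of nucleotide supply. Later, in G2, a different set of genes supplies the mitotic kinases, the spindle motors and the kinetochore, and the anaphase-promoting complex then removes cyclins to end mitosis. In the colon these genes are active mainly in the dividing cells of the lower crypt, while the differentiated colonocytes of the upper crypt and surface no longer divide. In whole mucosa a difference in these transcripts can come from more dividing cells or from more RNA per dividing cell, and bulk measurements cannot tell these apart.

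The 2 classes of members carry different elements in their promoters, which the choice of members did not use. Mitotic promoters are known to carry the cell cycle homology region (CHR) and CCAAT boxes, and S phase promoters are known for E2F sites. Reference promoters from RefSeq (GRCm38.p6), from 250 bases before to 50 bases after the start, were searched on both strands for 4 E2F octamers (TTTCCCGC, TTTGGCGC, TTCCCGCC or TTTCGCGC, which can overlap each other), for the CHR (TTTGAA or TTCGAA) and for the CCAAT box (CCAAT). A promoter was found for 14 S phase and 21 G2 and mitosis members. An E2F octamer lay in 7 of the 14 S phase promoters (50%) and in 1 of the 21 mitotic promoters (4.76%), that of Cdk1, against 5.2% of 17492 protein-coding genes. A CHR lay in 17 of the 21 mitotic promoters (81%) and in 2 of the 14 S phase promoters (14.3%), against 20.2% of protein-coding genes. CCAAT boxes lay in 19 of 21 (90.5%) and in 8 of 14 (57.1%), against 42.3%. These are matches of letters in a window and do not show that a factor binds there.

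The promoters of 4 members are shown as examples of both classes, because their genes are described below. Each is the 250 bases before the start, written 5′ to 3′ in the direction of the gene, with every match to an E2F octamer, a CHR or a CCAAT box in capitals. The helicase subunits Mcm5 and Mcm6 are examples from S phase. They do not stand for that whole class, in which 7 of 14 promoters held an E2F octamer and 2 a CHR. Cdc20, the activator of the anaphase-promoting complex, and Top2a, the topoisomerase that untangles sister chromatids, are examples from mitosis.
Mcm5, chr8:75109259-75109508, plus strand: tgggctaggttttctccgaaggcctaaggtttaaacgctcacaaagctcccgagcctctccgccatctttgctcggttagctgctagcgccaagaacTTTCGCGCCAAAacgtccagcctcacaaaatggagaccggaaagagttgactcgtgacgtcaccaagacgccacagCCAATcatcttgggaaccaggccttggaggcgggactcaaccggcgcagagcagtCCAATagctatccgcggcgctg
Mcm6, chr1:128359706-128359955, minus strand: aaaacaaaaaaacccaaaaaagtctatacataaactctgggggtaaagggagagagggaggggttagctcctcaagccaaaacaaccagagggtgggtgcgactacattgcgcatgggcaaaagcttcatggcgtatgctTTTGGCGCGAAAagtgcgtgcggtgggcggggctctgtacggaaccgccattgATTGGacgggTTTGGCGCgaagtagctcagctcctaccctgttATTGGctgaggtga
Cdc20, chr4:118437344-118437593, minus strand: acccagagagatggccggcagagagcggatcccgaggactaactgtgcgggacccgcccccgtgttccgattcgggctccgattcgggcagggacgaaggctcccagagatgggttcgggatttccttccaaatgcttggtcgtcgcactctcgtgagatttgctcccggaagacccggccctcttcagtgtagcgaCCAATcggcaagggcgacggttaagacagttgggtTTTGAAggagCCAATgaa
Top2a, chr11:99024190-99024439, minus strand: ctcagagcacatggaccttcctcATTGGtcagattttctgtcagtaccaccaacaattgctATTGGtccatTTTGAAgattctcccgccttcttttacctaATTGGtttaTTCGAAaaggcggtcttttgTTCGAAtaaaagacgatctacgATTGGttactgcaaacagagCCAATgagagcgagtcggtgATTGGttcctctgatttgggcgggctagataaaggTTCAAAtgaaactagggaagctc
The Mcm5 stretch holds 2 E2F matches that overlap on opposite strands, the Mcm6 stretch holds 3, and each holds 2 CCAAT boxes and no CHR. The Cdc20 stretch holds 1 CHR and 2 CCAAT boxes. The Top2a stretch holds 6 matches to each of these 2 elements, counting both strands, and no E2F octamer. Because TTCGAA reads the same on both strands, each such site counts as 2 matches.

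**Figure D1:**
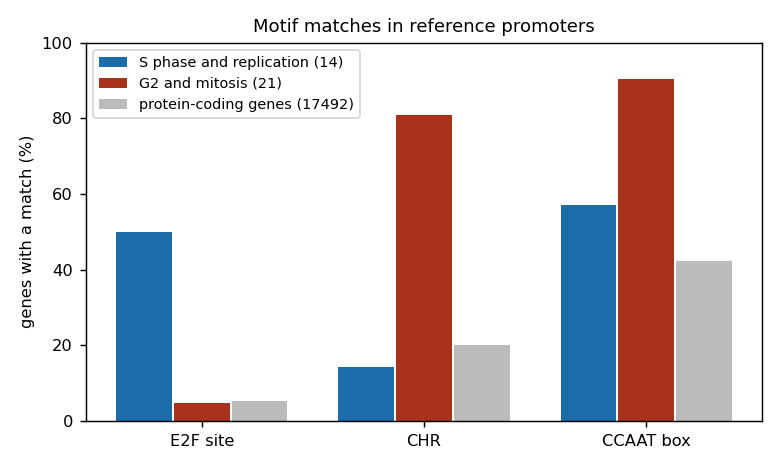
Share of genes (%) whose reference promoter holds at least 1 match to an E2F octamer, a CHR or a CCAAT box, for 14 S phase members, 21 G2 and mitosis members and 17492 protein-coding genes. E2F matches were found in 50% of S phase members and CHR matches in 81% of G2 and mitosis members.

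Dnmt1 (ILMN_2720451) checks the labels. Control mice 1 and 2 had levels of 9.41 and 9.18, and transgenic mice 1 and 2 had 7.44 and 6.75 (log2, mean of 2 arrays). The groups did not overlap, with a difference of -2.20 ± 0.28 (SE, limma adjusted p = 0.129). The mean raw signal of an array ran from 698 to 1080, and both arrays of transgenic mouse 1, at 698 and 753, were the dimmest. Epithelial markers were well measured, with 10 of 10 listed genes with a row detected on all 8 arrays, whereas 0 of 12 fibroblast, muscle and endothelial markers were detected often enough to be tested. The labels give neither the BeadChip nor the day of a hybridisation, so no batch could be examined.

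Of the 37 members with a row, 24 passed the detection filter, which asks for a detection p under 0.01 on at least 4 of the 8 arrays, and 21 of these were detected on all 8 arrays. Another 4, Mcm4, Mcm6, Tk1 and Cdk1, failed that filter although their raw signals ran from 280 to 1282. Their detection values are averages over what look like several probes. On all 8 arrays these 4 were above the signal at which other rows counted as detected (131 to 184, depending on the array). They were therefore tested in a second fit that filtered on signal, a choice made after the data were seen. The other 9 members, Ccne2, Cdc6, Mcm3, Ccna2, Ccnb2, Ube2c, Bub1, Cenpe and Hmmr, were not well above background on enough arrays, and 7 of them were detected on none.

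No member passed the test between genotypes, but nearly all were higher in the transgenic mice. Limma called 0 of the 24 tested members at an adjusted p under 0.05 and 0 of the 28 in the fit filtered on signal, where 9 of 6982 rows (0.129%) and 14 of 7524 rows (0.186%) were called in all. At an unadjusted p under 0.05, 11 of 24 members were higher and 0 lower, and 10 of the 21 detected on all 8 arrays were higher, while 4.43% of all tested rows were higher and 3.98% lower. In the fit filtered on signal these were 13 of 28 members and 4.55% of rows. Of the 21 members detected on all 8 arrays, 21 had a positive change, and 19 had both transgenic mice above both controls, a pattern found in 21.1% of rows detected on all 8 arrays. Over the 37 members with a row, detected or not, 35 had a positive change and 29 were higher in both transgenic mice, against 19.3% of all 18097 rows. The median change of the 21 was 0.58 on the log2 scale, or 1.5-fold, and that of all 37 was 0.56, while the median over all tested rows was -0.01. These sizes depend on the background: inferred from all rows, it lowered the S phase median over tested members from 0.63 to 0.19 and the mitotic one from 0.58 to 0.34.

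**Figure D2:**
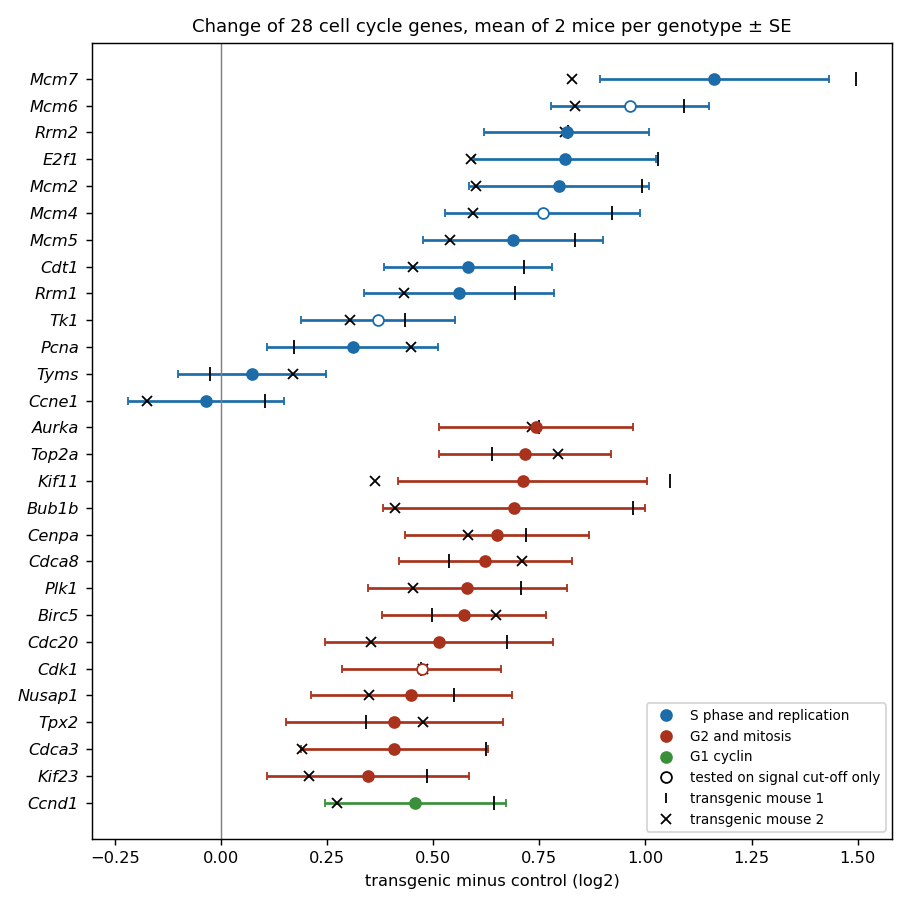
Change of 28 members, transgenic minus control (log2), as the mean of 2 mice per genotype with its standard error. Open circles mark the 4 members tested only in the fit filtered on signal, a vertical tick marks transgenic mouse 1 and a cross transgenic mouse 2, each minus the control mean. Ccne1 alone lies below 0; Mcm7 was detected on no control array, so its point is not a measured size.

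The S phase genes begin with the factors that start the programme. E2f1 (ILMN_1231138), the activator that drives S phase genes, was at 8.29 and 8.03 on the arrays of control mouse 1 and at 8.08 and 8.16 in control mouse 2. It was at 9.19 and 9.15 in transgenic mouse 1 and at 8.86 and 8.60 in transgenic mouse 2. All 4 transgenic arrays were thus above all 4 control arrays, by 0.81 ± 0.21 on average (SE, limma adjusted p = 0.422). Cyclin E1, the partner of Cdk2 at the entry to S phase, stood apart from the rest. Ccne1 (ILMN_2716497) was at 6.39 ± 0.02 in control and 6.35 ± 0.20 in transgenic mice (SD, n = 2), which gave a change of -0.04 with a 95% interval of -0.51 to 0.44. It was dim, with 1 of 4 control arrays and 3 of 4 transgenic arrays detected. The row of the second E cyclin, Ccne2, was detected only on the 2 arrays of transgenic mouse 2, where it stood at 6.56 and 6.43, against 5.29 to 5.64 on the other 6 arrays.

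Cdt1, which loads the helicase onto origins in G1, was at 10.08 and 9.83 in the control mice and at 10.67 and 10.41 in the transgenic mice. The groups did not overlap, and the change of 0.58 ± 0.20 (SE) had an adjusted p of 0.529 in limma. Cdc6, its partner in loading, was detected on none of the 8 arrays. The MCM helicase itself, a ring of Mcm2 to Mcm7 that opens the DNA ahead of the fork, had no subunit that passed the test, and Mcm3 and Mcm7 were detected on no control array. The other 4 had both transgenic mice above both controls, as had 22% of all rows over the signal cut-off.

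Mcm5 (ILMN_2742849) was at 11.38, 11.25, 10.92 and 11.08 on the control arrays and at 12.01, 11.98, 11.66 and 11.74 on the transgenic arrays. Mcm2 (ILMN_1250907) was at 8.87, 8.50, 8.37 and 8.63 and at 9.60, 9.57, 9.16 and 9.22. In both genes the lowest transgenic array was above the highest control array, and the mice of 1 genotype differed by less than the genotypes did. The changes were 0.69 ± 0.21 for Mcm5 and 0.80 ± 0.21 for Mcm2 (SE, limma adjusted p = 0.503 and 0.425). Mcm6 (ILMN_1217331) was at 8.37 ± 0.10 in control and 9.34 ± 0.18 in transgenic mice (SD, n = 2). Its change of 0.96 ± 0.19 (SE), or 1.95-fold, had the smallest adjusted p of all members in the fit filtered on signal, 0.224. Mcm4 was higher by 0.76 ± 0.23 in the same fit (adjusted p = 0.478).

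Mcm7 (ILMN_2673889) was not well above background on any control array and was detected on all 4 transgenic arrays, so that it passed the filter through the transgenic mice alone. It was at 5.66 ± 0.05 in control and 6.82 ± 0.47 in transgenic mice (SD, n = 2). This was at least 1.31-fold higher, with an adjusted p of 0.343 in limma. The transgenic mice were unequal, at 7.16 and 6.49. Mcm3 was detected on 2 transgenic arrays and no control array, with 5.84 ± 0.25 and 6.44 ± 0.12, and was not tested.

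Enzymes that make deoxynucleotides gave mixed values. Rrm2 (ILMN_2714565), the subunit of ribonucleotide reductase that is made in S phase, was at 7.0 and 6.66 in the control mice and at 7.65 and 7.64 in the transgenic mice. The groups did not overlap, and the change was 0.81 ± 0.19 (SE, limma adjusted p = 0.365). It was 0.10 with the background inferred from all rows. Its partner Rrm1 was at 9.24 and 8.83 and at 9.72 and 9.46, a change of 0.56 ± 0.22 (adjusted p = 0.606). Thymidine kinase, Tk1, was higher by 0.37 ± 0.18 in the fit filtered on signal (adjusted p = 0.641). Thymidylate synthase did not follow them: Tyms was at 8.31 and 8.40 in the control mice and at 8.33 and 8.53 in the transgenic mice, and the groups overlapped. Its change of 0.07 had a 95% interval of -0.38 to 0.53 (limma adjusted p = 0.914). Pcna, the sliding clamp of the fork to which Dnmt1 binds during replication, was at 6.96 and 6.70 and at 7.0 and 7.28, a change of 0.31 ± 0.20 (adjusted p = 0.707).

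**Figure D3:**
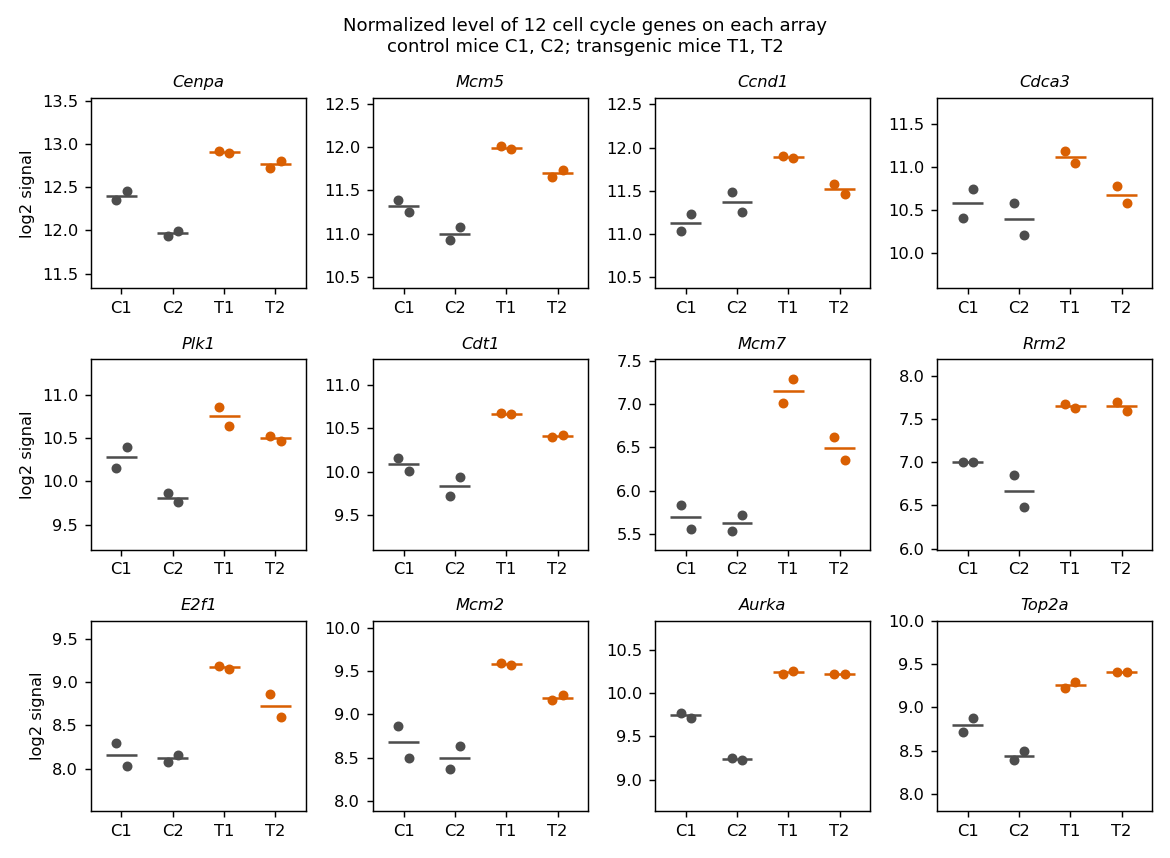
Normalized level (log2) on each of the 8 arrays for 12 members that passed the detection filter, the 6 with the largest mean level and, among the rest, the 6 with the largest change; Mcm4 and Mcm6, tested only in the fit filtered on signal, are not drawn. Points are arrays, bars are the means of control mice C1 and C2 and transgenic mice T1 and T2, and the axis of each panel has its own range. Panels picked for a large change separate the genotypes by that choice, and among the 6 picked for their level the bars of both transgenic mice also lie above those of both control mice.

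The G2 and mitosis genes begin with the kinases. Aurka (ILMN_2617228), the kinase that matures centrosomes, was at 9.77 and 9.71 in control mouse 1 and at 9.25 and 9.22 in control mouse 2. It was at 10.22 to 10.25 on all 4 transgenic arrays. The transgenic mice were therefore alike and the control mice 0.51 apart, beside a change of 0.74 ± 0.23 (SE, limma adjusted p = 0.502). Plk1, the polo kinase of mitotic entry, was at 10.28 and 9.81 and at 10.75 and 10.50, a change of 0.58 ± 0.23 (adjusted p = 0.606). Cdk1, the kinase that drives mitosis, was higher by 0.47 ± 0.19 in the fit filtered on signal (adjusted p = 0.591), with both transgenic mice at 8.54. Its cyclins could not be followed, since Ccna2 and Ccnb2 were detected on none of the 8 arrays.

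Top2a (ILMN_2830661) was at 8.71, 8.87, 8.39 and 8.49 on the control arrays and at 9.22, 9.29, 9.41 and 9.41 on the transgenic arrays. The groups did not overlap, and this change of 0.72 ± 0.20 had the smallest adjusted p of the tested mitotic members (SE, limma adjusted p = 0.460). Cenpa, the histone that marks the centromere, was at 12.40 and 11.97 and at 12.90 and 12.77, a change of 0.65 ± 0.22 (adjusted p = 0.524). The chromosomal passenger genes Birc5, whose product is survivin, and Cdca8, whose product is borealin, had changes of 0.57 ± 0.19 and 0.62 ± 0.20 (adjusted p = 0.524 and 0.519). In both, transgenic mouse 2 was the higher of the transgenic mice.

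Of the checkpoint and exit genes, Bub1b, which holds back anaphase, had a change of 0.69 ± 0.31 and Cdc20 one of 0.51 ± 0.27 (SE, limma adjusted p = 0.637 and 0.655). Cdca3, which helps trigger mitotic entry, had a change of 0.41 ± 0.22 (adjusted p = 0.666). Of the spindle genes, the motor Kif11 was at 0.71 ± 0.29, the bundling protein Nusap1 at 0.45 ± 0.24, the spindle assembly factor Tpx2 at 0.41 ± 0.26 and the motor of the midzone Kif23 at 0.35 ± 0.24 (transgenic minus control, log2, SE), with adjusted p of 0.611 to 0.713. Kif23 was the only tested mitotic gene whose groups overlapped, since transgenic mouse 2 at 8.73 was just below control mouse 1 at 8.76. Bub1, Cenpe, Hmmr and Ube2c were not detected on any array. The G1 cyclin Ccnd1 was at 11.13 and 11.37 in the control mice and at 11.89 and 11.52 in the transgenic mice, a change of 0.46 ± 0.21 (adjusted p = 0.640).

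S phase and mitotic members were then set side by side. The 8 S phase members detected on all 8 arrays had a median change of 0.63, or 1.55-fold, and 7 did not overlap between genotypes. The 12 mitotic members had a median of 0.60, or 1.52-fold, and 11 did not overlap, where 21.1% of rows detected on all 8 arrays had both transgenic mice above both controls. With every member that had a row, detected or not, the medians were 0.59 over 16 and 0.46 over 20 genes. Among members detected on all 8 arrays, changes ran from 0.07 for Tyms to 0.81 for Rrm2 in the S phase class and from 0.35 for Kif23 to 0.74 for Aurka in the mitotic class. A difference between the classes was not tested.

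**Figure D4:**
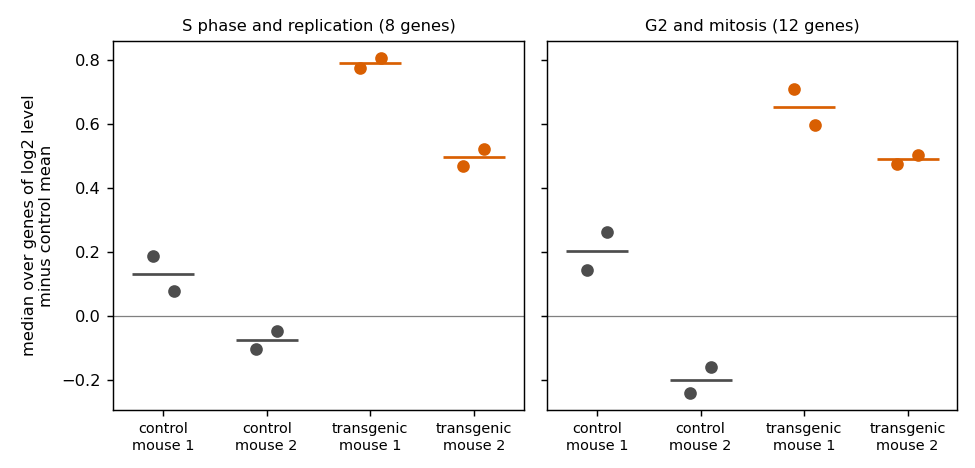
Median, over 8 S phase and 12 mitotic members detected on all 8 arrays, of the level on an array minus the control mean (log2). Points are arrays and bars are mouse means. All 4 transgenic arrays lie above all 4 control arrays in both panels.

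Mice of the same genotype also differed in these genes. Control mouse 1 was above control mouse 2 in 19 of the 21 members detected on all 8 arrays, by a median of 0.34, where 49.2% of all such rows were higher in control mouse 1 and the median difference was -0.0035. In the 12 mitotic members it was higher in 12, by a median of 0.45, and in the 8 S phase members in 7, by 0.26. The median SD between control mice was 0.24 for the 21 members and 0.10 for all rows detected on all 8 arrays. Between transgenic mice it was 0.19 for members and 0.21 for all such rows, and the median SD between the 2 arrays of a mouse was 0.11 for members. Transgenic mouse 1 was the higher of the transgenic mice in 15 of 21 members. Set against each single control mouse, transgenic mouse 1 was higher by a median of 0.50 and 0.90, and transgenic mouse 2 by 0.33 and 0.68, over the 21 members. The smallest of these pairings, transgenic mouse 2 against control mouse 1, had a median of 0.35 in S phase and 0.21 in mitotic members.

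The dimmer arrays of transgenic mouse 1 bear on the size of its shift. Without normalization between arrays, the median of all 5976 rows detected on all 8 arrays was lower by -0.34 in transgenic mouse 1 and higher by 0.15 in transgenic mouse 2 than the control mean. The 21 members were higher by 0.28 and 0.65 on the same scale, and 15 of them had both transgenic mice above both controls, against 12.5% of all such rows. The median of the members, though not each member, was thus above the control mean in both mice also on unscaled values.

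Other genes of the pathway were read from lists that hold no member. Limma called none of their tested genes in either direction, at an adjusted p under 0.05. Of 16 tested genes of the mitotic checkpoint, kinetochore and spindle, 16 were higher, with a median of 0.47, and 13 did not overlap between genotypes, against 21.7% of tested rows. Those with the smallest p were the microtubule regulator Stmn1 (0.84 ± 0.17), the midzone crosslinker Prc1 (0.76 ± 0.23) and the passenger scaffold Incenp (0.73 ± 0.25), with adjusted p of 0.265 to 0.524. Of 11 tested chromosome structure genes 9 were higher, with a median of 0.52, among them separase, Espl1 (0.77 ± 0.25), and the condensin subunits Ncaph (0.71 ± 0.25) and Ncapg2 (0.61 ± 0.18). Ncapg2 and Espl1 were each detected on 2 of 4 control arrays.

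Of 25 tested genes of the replication fork and origins, 22 were higher, with a median of 0.34. Beside Dnmt1, which is on that list and was lower, the smallest p values were those of the polymerase subunits Pole (0.94 ± 0.20, detected on 3 of 4 control arrays) and Pola2 (0.66 ± 0.18), with adjusted p of 0.283 and 0.428. All 11 tested nucleotide supply genes, of 16 with a row, were higher, as were 48.5% of tested rows. Their median was 0.25, and they were led by the CTP synthase gene Ctps (0.69 ± 0.18) and the purine enzyme genes Gart (0.61 ± 0.21) and Atic (0.47 ± 0.20).

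The tested ubiquitin ligase genes were nearer to 0. Of the 21 genes of that list with a row, 10 were tested and 10 were detected on no array. Cdc23, 1 of those not detected, was nevertheless over the signal cut-off on all 8 arrays. Of 10 tested subunits of the anaphase-promoting and SCF ubiquitin ligases, 6 were higher and 4 lower, with a median of 0.05. Cul1 alone had both transgenic mice above both controls, a pattern found in 21.7% of tested rows. Cdc16, Cul1 and Skp1 had changes of 0.18, 0.15 and -0.17 (limma adjusted p of 0.813 to 0.823). Of 6 tested E2F family genes 4 were higher, with a median of 0.22, led by E2f2 (0.85 ± 0.30, detected on 5 of 8 arrays), E2f6 (0.42 ± 0.16) and the dimer partner Tfdp1 (0.26 ± 0.16). Of 7 tested G1 cyclin, kinase and phosphatase genes 5 were higher, with a median of 0.46 over the 7 and of 0.13 over all 13 with a row. Among them were the phosphatase Cdc25a (0.62 ± 0.18), Cdk2 (0.51 ± 0.20) and the inhibitory kinase Pkmyt1 (0.68 ± 0.29). The median of 0.46 is the value of Cdc25b, named here after its values were seen. It was detected on 1 of 4 control and 4 of 4 transgenic arrays, so the transgenic arrays alone met the filter.

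The list of inhibitors and pocket proteins had 4 genes higher and 8 lower of 12 tested, with a median of -0.11. It held changes of opposite sign. Cdkn1c, the imprinted inhibitor of cyclin kinases, was at 10.52 and 10.51 in the control mice and at 12.37 and 11.78 in the transgenic mice, a change of 1.56 ± 0.25 (SE, limma adjusted p = 0.184). Gadd45b, a stress gene that can restrain Cdk1, was at 7.82 and 7.93 and at 6.87 and 6.86, a change of -1.01 ± 0.16 (adjusted p = 0.191). Foxm1, the transcription factor of mitotic genes that was placed on the same list, had a change of 0.62 ± 0.20 (adjusted p = 0.519).

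**Figure D5:**
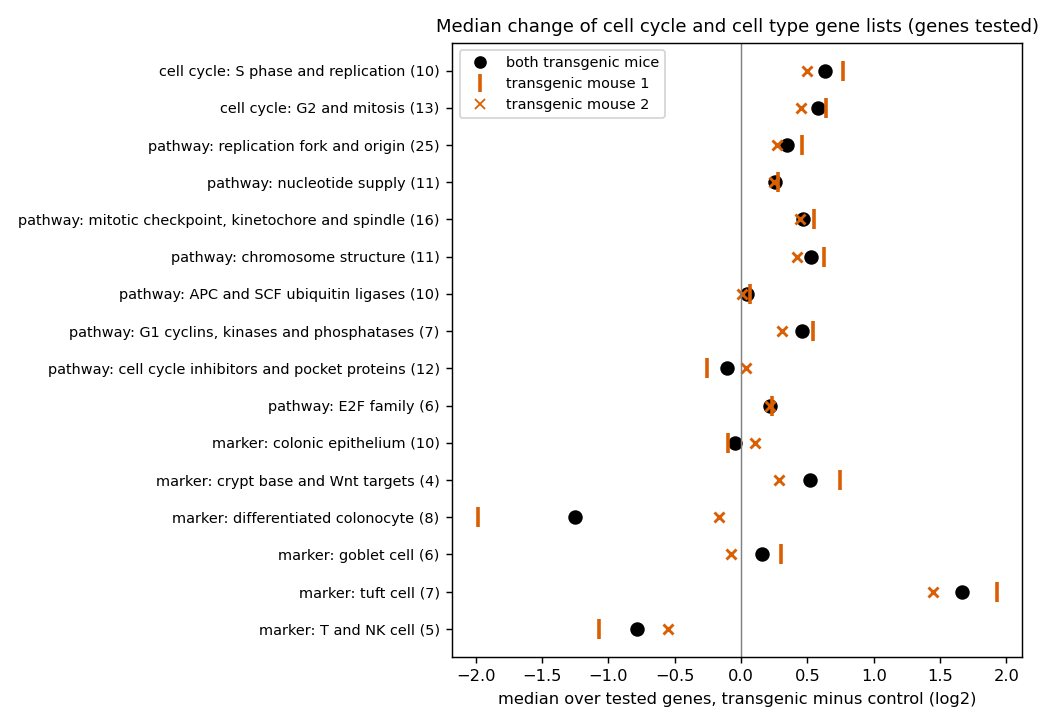
Median change of each list with at least 4 tested genes, transgenic minus control (log2). Circles are both transgenic mice, ticks transgenic mouse 1 and crosses transgenic mouse 2, and the number of tested genes is in brackets. The 2 cell cycle classes lie at 0.63 and 0.58, and the differentiated colonocyte list at -1.25.

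Markers of cell types were measured on the same arrays. Of 4 tested crypt base and Wnt target genes, 4 were higher, with a median of 0.74 in transgenic mouse 1 and 0.29 in transgenic mouse 2. Cd44 (0.74 ± 0.20) and Axin2 (0.82 ± 0.23) had both transgenic mice above both controls, against 21.7% of tested rows. Sox9 (0.30 ± 0.25) overlapped between genotypes, as did Ascl2 (0.08 ± 0.23), named here after its values were seen. In transgenic mouse 2 Ascl2 was below the control mean (-0.10). Lgr5, which defines crypt base stem cells, was detected on 3 of 8 arrays, and Olfm4, Prom1 and Myb on none. Of 8 tested differentiated colonocyte genes 7 were lower, with a median of -1.98 in transgenic mouse 1 and -0.16 in transgenic mouse 2. Their summed level ran from 91067 to 99318 in the control mice and was 53783 and 92729 in the transgenic mice. Scnn1b (-2.06 ± 0.45), Atp12a (-1.83 ± 0.55) and Aqp8 (-1.86 ± 0.79) had the smallest p on that list (limma adjusted p of 0.303 to 0.622). In these 3 of the 8, both transgenic mice were below both controls, a pattern found in 20.9% of tested rows. The rest of the list overlapped between genotypes. Scnn1b was detected on 4 of 4 control and 2 of 4 transgenic arrays. Its control arrays alone met the filter, so the size of its change is uncertain. The summed level rests largely on Guca2a, named here after its values were seen, which was at 15.85 and 15.88 in the control mice and at 15.38 and 15.92 in the transgenic mice.

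Markers of blood cells were mostly dim. Of 5 tested T and NK cell genes, 5 had both transgenic mice below both controls, against 20.9% of tested rows. The median change was -0.78, with Cd3d at -0.99 ± 0.24, Ccl5 at -0.76 ± 0.21 and Cd3g at -0.78 ± 0.24. Their summed level ran from 1487 to 1620 in the control mice and from 751 to 1064 in the transgenic mice. Of these 5 genes 1, Ccl5, was detected on all 8 arrays. The others, Cd3d and Cd3g among them, were detected on 4 of 4 control and 2 of 4 transgenic arrays. Their control arrays alone met the filter, which favours genes that are lower in the transgenic mice. The size of their change is uncertain. Of 6 B and plasma cell genes with a row 5 were detected on no array, and Xbp1, which secretory epithelium also makes, had a change of 0.34 ± 0.23. Of 7 macrophage and myeloid genes with a row 5 were detected on no array, and Mrc1 and Cd14 (0.15 ± 0.21) were tested. Mrc1 was detected on 0 of 4 control and 4 of 4 transgenic arrays (limma adjusted p = 0.118). Of 7 tested tuft cell genes, 7 had both transgenic mice above both controls, against 21.7% of tested rows. Their median was 1.66, and that over all 11 with a row was 1.08. Limma called none of them. They were led by Gng13 (1.99 ± 0.23), Kctd12 (1.43 ± 0.17) and Dclk1 (1.66 ± 0.24), with limma adjusted p of 0.107 to 0.156. Hpgds, named here after its values were seen, was detected on 2 of 4 control arrays. Goblet cell genes had a median of 0.16 over 6, with Tff3 at -0.77 ± 0.19, Retnlb at 0.38 ± 0.24 and Agr2 at 0.50 ± 0.34, and epithelial genes one of -0.05 over 10, with Krt20 at -1.12 ± 0.81, Krt18 at 0.24 ± 0.18 and Krt19 at -0.55 ± 0.46. Krt20 and Krt19 were below the control mean in transgenic mouse 1 (-2.33 and -1.21) and above it in transgenic mouse 2 (0.10 and 0.11). Krt18 was above it in both (0.37 and 0.11). With the background inferred from all rows, the medians were 0.48 for the tuft, -0.080 for the T and NK, 0.18 for the crypt base and 0.15 for the myeloid list. Among the pathway lists they were 0.11 for the mitotic checkpoint, 0.16 for chromosome structure, 0.095 for nucleotide supply and 0.087 for G1 cyclins. The part of any cell type in the values of the members was not tested.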

How the data were processed

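Total RNA from the colonic mucosa of 4 mice was hybridised as biotinylated cRNA, per the labels' protocols. The authors deposited linear bead intensity values neither normalized between arrays nor background-subtracted, as the values show. The deposited detection values are a fraction per row and array that the file headers call a p. They rise with the signal (rank correlation 0.945 to 0.954) and were read as 1 minus the detection p. In 13920 rows they are whole multiples of 1/798 (tolerance 0.005 steps), and the other 4177 look averaged. The deposited series matrix holds log2 values, quantile normalized by the authors as identical column extremes show. BeadStudio and Partek are named per the submitters' processing notes, without version.

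Background was corrected by normexp as in neqc (limma 3.58.1, R 4.3.3), with its mean and SD inferred from whole-step rows, an offset of 16, quantile normalization and log2. Both arrays of each mouse were averaged before lmFit and eBayes compared genotypes over 6982 rows with Benjamini-Hochberg adjustment, two-sided, at 0.05. The labels do not say whether the mice were littermates. Fold changes carry the offset and understate dim rows. The number of mice and arrays limits the precision. An "at least" fold sets the brighter genotype against the higher of the row's value and the lowest detected whole-step row on each dim array. A gene with several rows was read from its brightest row. The fit was tested on simulated data. Members and lists were chosen with earlier results of these data known. Named list genes are the 3 tested genes with the smallest p, or fewer where fewer were tested, and genes named as not detected were chosen after their values were seen. Sequences are from RefSeq. Alternatives covered background, scaling, offset, filters, arrays, mice and model.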

Additional observations from a re-analysis of the deposited data

Results flagged for a closer look

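Over the 28 members tested in either fit, the 4 arrays of each genotype were examined for an array far from the others, 56 groups in all. In Tyms the first array of control mouse 1 was at 8.21 and the other control arrays at 8.39 to 8.42. In Aurka the second array of transgenic mouse 1 was at 10.25 (10.2519) and the other transgenic arrays at 10.22 to 10.23. Chance flags about 1 in 20 groups of independent samples, and the 2 arrays of a mouse are not independent.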

How the results depend on the processing

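The members were higher in nearly every setting, while the number of calls over all rows was not stable. Members higher at an unadjusted limma p under 0.05 were 11 of 24 here, against 4.43% of rows. They were 8 with the background inferred from all rows (4.4% of rows) and 5 without normalization between arrays (2.95%). With 8 arrays and the mouse as a random effect they were 15 (6.99%). Of 24 tested members 22 to 24 had a positive change in each alternative that tested them. With both mice of each genotype kept, 0 were called in any alternative. The S phase median was 0.19 to 0.80 and the mitotic median 0.34 to 0.81 over 19 alternatives each, lowest (0.19 and 0.34) with the background inferred from all rows. Rows called, 9 here, were 0 with that background, 2 when all 18097 rows were tested, 1 when a row had to be detected on all 8 arrays, 185 with 8 arrays and the mouse as a random effect, 137 with a replicate block on the array number, and 14 with the signal filter, which was added after the data were seen, as was the setting without normalization between arrays. Leaving out a mouse gave 0 to 850 called rows and 0 to 4 called members. The 0 were without either control mouse, 53 rows were called without transgenic mouse 1, and 850 rows with E2f1, Mcm2, Mcm7 and Kif11 without transgenic mouse 2 (limma adjusted p of 0.0124 to 0.0409). There the lone mouse is assumed to vary like the controls, so no conclusion is drawn from these calls. Mcm7 was detected on 0 of 4 control arrays and passed the filter through the transgenic mice alone, so the size of its change is not measured. With all mice kept and the background inferred from all rows, the change of Mcm7 was 0.08. Array numbers did not pair the arrays (correlations of -0.243 to 0.139 between mice), and with the block 0 members were called. Dnmt1 was called with 8 arrays (limma adjusted p = 0.00547) and with the block (0.0143). Ccne1 changed sign with median scaling (0.021), on the first arrays alone (0.20) and among the mice left out (-0.17 to 0.10), as did Tyms on the second arrays alone (-0.035) and among the mice left out (-0.025 to 0.171). The causes were not tested. Rows near background limit what can be read of 9 members.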
